A study of Mus musculus with 24 samples.

Results

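The Janus kinases are the tyrosine kinases that sit on the inner tails of cytokine receptors. When a cytokine draws the receptor chains together, the bound kinases phosphorylate each other, the receptor and the STAT factors, which then enter the nucleus and switch on genes, among them the SOCS inhibitors that close the loop. Mammals have 4 members, Jak1, Jak2, Jak3 and Tyk2, and each was taken from the count table by its exact symbol, so that 4 of 24454 genes are described. Jak1 serves interferon, gp130 and common gamma chain receptors. Jak2 serves the receptors of erythropoietin and growth hormone, and activating changes in it cause myeloproliferative neoplasms. Jak3 pairs with the common gamma chain and is known mainly from lymphoid cells, and Tyk2 serves type I interferon and interleukin-12 class receptors.

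RNA was sequenced with Smart-seq2 from bone marrow populations sorted from C57BL/6N mice that had been given tamoxifen on 5 days and were sorted 12 weeks after it. LTHSC are long-term haematopoietic stem cells, pre-MegE are precursors of both the erythroid and the megakaryocyte path, and MkP give rise to megakaryocytes alone, from which platelets are shed. Of the lines, KI is labelled as Scl.Cre with mouse Jak2 knocked in, E12 as Scl.Cre with Exon12, and VF as Vav1.Cre with V617F; each gave 3 libraries per population, and a pre-MegE group of E12 was not analysed here. Both Cre drivers act in blood cells, the series speaks of wild-type and mutant JAK2 strains, and the sample labels do not say which line is unmutated, so KI was used as the common reference and not taken as wild type. Because the driver changes with VF, driver and allele cannot be told apart in any VF comparison. Ages are not given, and nothing says that replicates are separate mice, so the p-values rest on a spread between samples that may be technical.

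The 24 libraries held 10357877 to 29691635 counts. In 4 of them the TMM factor, which corrects library size for differences in makeup, scaled among the libraries of a population, was under 0.8: LTHSC E12 4, pre-MegE KI 1, MkP KI 5 and MkP KI 6. Values without them are given where the sign or call of a JAK gene's level changed, and for some other results, but not for every result that rests on them. The summed level of 9 stem cell markers was 807 to 2915 CPM in LTHSC, 232 to 855 in pre-MegE and 362 to 1559 in MkP, and that of 8 megakaryocyte markers was 319 to 1002, 717 to 3437 and 2601 to 16439 CPM. LTHSC E12 4 stood apart with 26868 CPM of 9 neutrophil and monocyte markers.

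The sequences around Jak2 codon 617 are shown because the VF label names it, with the aligned codon of the other 3 kinases in capitals. The codon lies in the pseudokinase domain, the inactive copy of the kinase fold that restrains the active one, and the windows are 39 bases of the spliced coding strand (GENCODE M21, GRCm38).
Jak1: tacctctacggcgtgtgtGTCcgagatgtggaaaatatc
Jak2: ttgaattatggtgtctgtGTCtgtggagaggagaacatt
Jak3: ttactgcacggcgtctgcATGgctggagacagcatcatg
Tyk2: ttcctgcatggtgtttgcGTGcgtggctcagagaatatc

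The capitals mark Jak2 codon 617 at chr19:29294928-29294930 on the plus strand. They mark codon 657 of Jak1 at chr4:101163671-101163673 on the minus strand, codon 588 of Jak3 at chr8:71682972-71682974 on the plus strand and codon 698 of Tyk2 at chr9:21115205-21115207 on the minus strand. Jak1 and Jak2 carry the same codon there. The translated coding sequences of the 4 genes are 1100 (Jak3) to 1207 (Tyk2) codons long and identical at 42.4% (Jak1 and Jak3) to 49.1% (Jak2 and Jak3) of aligned residues. The Jak2 exon with codon 617 is number 13 in one annotated transcript and number 14 in another. The exon numbered 12 is correspondingly chr19:29291167-29291301 or chr19:29288674-29288801, and the labels do not say which numbering the E12 name follows. The table sums all reads of Jak2, so its alleles are not separated.

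All 4 genes were measured in every library, with 219 to 10061 counts per library. Levels below are CPM (counts scaled to library size with TMM factors) per kilobase of the deposited gene length (CPM per kb), so that genes can be compared with each other. Jak1 was above Jak2 and Tyk2 in 24 of 24 libraries and above Jak3 in 23 of 24, with a median ratio of 1.93 (Jak1 to Jak2), 0.91 (Jak1 to Jak3) and 1.79 (Jak1 to Tyk2) on the log2 scale. Jak3 was above Jak2 in 23 of 24 libraries. The order of the lower pair was not fixed, since Jak2 was above Tyk2 in 14 of 24 libraries. The full order Jak1, Jak3, Jak2, Tyk2 held in 14 libraries and Jak1, Jak3, Tyk2, Jak2 in 8. The exceptions were LTHSC E12 11, where Jak3 (58.9 CPM per kb) exceeded Jak1 (53.2), and pre-MegE KI 3, where Jak3 (6.22) came below Tyk2 (8.41) and Jak2 (6.23).

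Jak1 was the member with the highest level among all genes, ranking above 71.9% to 92.9% of the genes tested in a library. In LTHSC it stood at 61.8, 63.0 and 74.4 CPM per kb in KI, at 21.1, 53.2 and 63.6 in E12 and at 57.3, 57.7 and 67.1 in VF. In pre-MegE it stood at 22.1, 25.4 and 39.4 in KI and at 32.1, 37.8 and 49.3 in VF. In MkP it stood at 28.3, 29.0 and 34.4 in KI, at 37.4, 37.6 and 51.6 in E12 and at 36.0, 37.0 and 41.8 in VF. Every KI and VF library of LTHSC lay above every pre-MegE library, and the lone low stem cell library was LTHSC E12 4.

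Jak2 ranked lower, above 42.9% to 71.9% of the genes in a library. In LTHSC it stood at 8.10, 11.5 and 13.1 CPM per kb in KI, at 3.61, 10.1 and 11.1 in E12 and at 17.0, 18.3 and 20.7 in VF. In pre-MegE it stood at 5.69, 6.23 and 7.08 in KI and at 7.63, 11.1 and 12.3 in VF. In MkP it stood at 7.30, 9.36 and 14.3 in KI, at 10.2, 12.0 and 12.4 in E12 and at 13.7, 14.9 and 17.9 in VF. The VF group had the highest mean of its population in all 3 populations, 18.7 ± 1.87 in LTHSC, 10.3 ± 2.43 in pre-MegE and 15.5 ± 2.14 in MkP (SD, n = 3). The E12 libraries lay among or below the KI libraries in LTHSC and among them in MkP.

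Jak3, the lymphoid-associated member, ranged from 6.22 to 58.9 CPM per kb across libraries. In LTHSC it stood at 24.8, 29.2 and 45.5 in KI, at 20.8, 34.2 and 58.9 in E12 and at 26.2, 37.9 and 42.2 in VF. In pre-MegE it stood at 6.22, 7.97 and 13.5 in KI and at 15.6, 15.8 and 16.8 in VF. In MkP it stood at 17.1, 18.6 and 19.5 in KI, at 20.6, 20.7 and 20.7 in E12 and at 20.3, 23.3 and 23.9 in VF. In KI and VF every stem cell library lay above every MkP library, and every MkP library lay above every pre-MegE library.

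Tyk2 ranged from 5.67 to 15.5 CPM per kb. In LTHSC it stood at 7.90, 8.23 and 9.50 in KI, at 6.64, 8.70 and 11.1 in E12 and at 8.94, 9.01 and 10.8 in VF. In pre-MegE it stood at 5.67, 8.41 and 12.1 in KI and at 8.67, 12.3 and 12.4 in VF. In MkP it stood at 9.13, 11.6 and 14.3 in KI, at 10.4, 13.2 and 15.5 in E12 and at 10.8, 13.0 and 13.1 in VF. The ranges of the 3 populations overlapped.

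**Figure D1:**
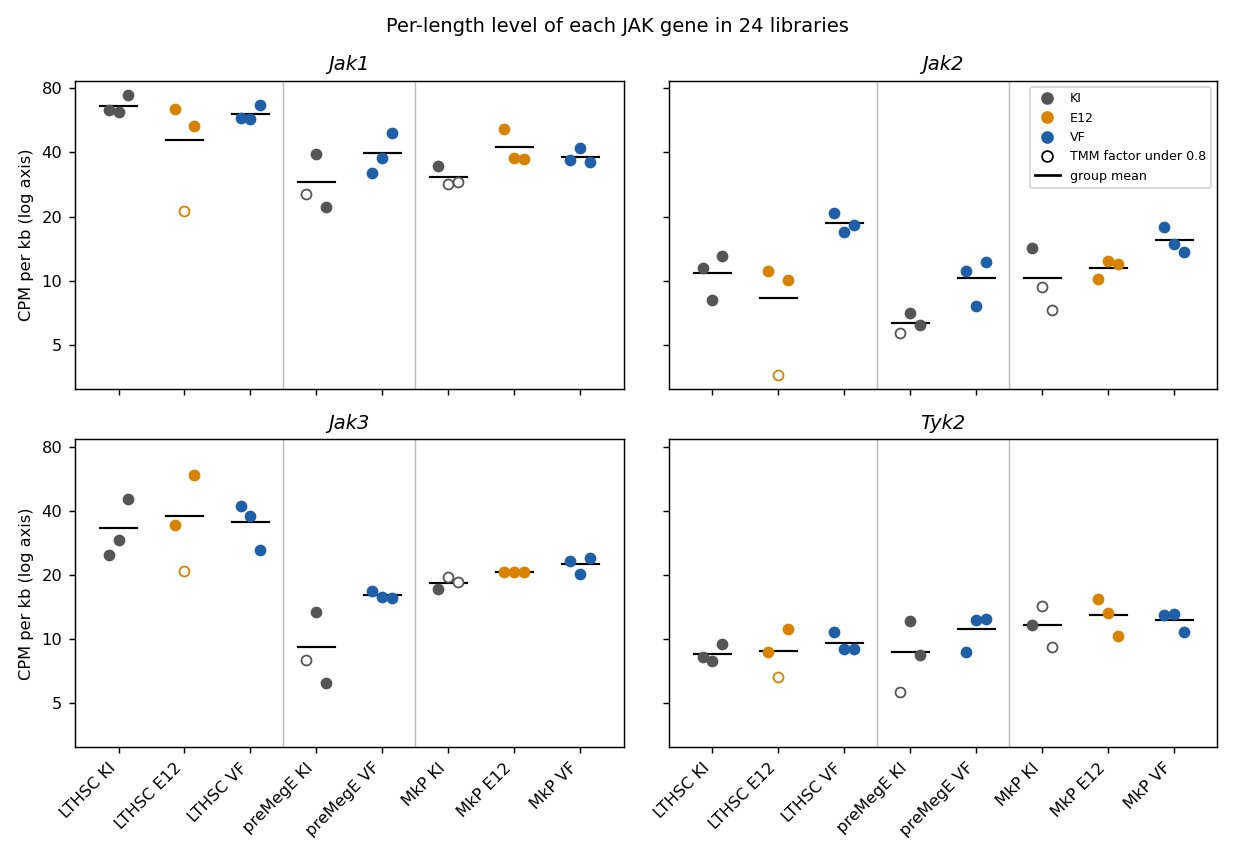
Level of each JAK gene in CPM per kb (log axis) in 24 libraries, by population and line, with 1 point per library, open points for the 4 libraries of low TMM factor and bars for group means of 3. Jak1 lies above the other genes in 23 of 24 libraries, Jak3 drops from stem cells to pre-MegE, and the 3 VF points of Jak2 in LTHSC (17.0 to 20.7) lie above all KI and E12 points.

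The first comparison asks how the kinase genes differ between stem cells and the progenitors of the megakaryocyte path. Between pre-MegE and LTHSC, averaged over KI and VF, 3 of the 4 genes fell and Tyk2 did not pass the test, where 40.7% of all genes passed in either direction (21.3% higher and 19.4% lower, that is 3183 and 2909 genes, or 1702 and 3736 with library size alone). Jak3 fell by 1.49 on the log2 scale (SE 0.23, edgeR adjusted p = 6.76e-05), Jak1 by 0.90 (SE 0.23, adjusted p = 0.00356) and Jak2 by 0.82 (SE 0.23, adjusted p = 0.00858). Tyk2 differed by 0.13 (SE 0.20, adjusted p = 0.643), with a 95% interval of -0.28 to 0.53. The libraries of pre-MegE and LTHSC did not overlap for Jak1 and Jak3, as for 25.8% of all genes, and overlapped for Jak2 and Tyk2. All 3 falls kept their direction and passed in every alternative run and with each library left out. In bulk samples fewer cells of a type and less RNA per cell cannot be told apart.

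Between MkP and LTHSC, averaged over the 3 lines, Jak1 and Jak3 fell and Tyk2 rose, where 34.7% of all genes passed (17% higher and 17.7% lower, that is 2551 and 2647 genes, or 1208 and 3188 with library size alone). Jak3 fell by 0.79 (SE 0.19, edgeR adjusted p = 0.00271) and Jak1 by 0.64 (SE 0.19, adjusted p = 0.0111). Jak2 differed by 0.04 (SE 0.19, adjusted p = 0.895), with a 95% interval of -0.35 to 0.44. Tyk2 rose by 0.46 (SE 0.16, adjusted p = 0.0317). The libraries of the populations overlapped for all 4 genes, and 4.74% of all genes did not overlap. The rise of Tyk2 rests on the scaling between libraries. With library size alone, which moves the median of all genes by -0.28 in this comparison and by -0.41 in pre-MegE against LTHSC, Tyk2 stood at 0.14 in MkP (adjusted p = 0.711) and at -0.23 in pre-MegE. Its call in MkP was also lost in 10 of 18 fits that left out 1 library, with adjusted p up to 0.0725.

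Both comparisons use the LTHSC libraries, so they are not independent of each other. Between MkP and pre-MegE, where 7.54% of all genes passed, no JAK gene passed the threshold, and 1 of the 4, Jak3, did not overlap between the populations, as for 3.4% of all genes. Jak3 was higher in MkP by 0.74 (SE 0.23, edgeR adjusted p = 0.053) and Jak2 by 0.64 (SE 0.23, adjusted p = 0.102). Jak1 differed by 0.01 (95% interval -0.46 to 0.48) and Tyk2 by 0.28 (-0.13 to 0.69). Jak2 passed without the 4 libraries of low TMM factor (0.86, adjusted p = 0.00213) and with DESeq2 (0.64, adjusted p = 0.0473). Jak3 passed with RLE scaling (0.75, adjusted p = 0.0443), with DESeq2 (0.75, adjusted p = 0.0192), without pre-MegE KI 2 (0.93, adjusted p = 0.0182) and without MkP KI 4 (0.76, adjusted p = 0.0402).

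**Figure D2:**
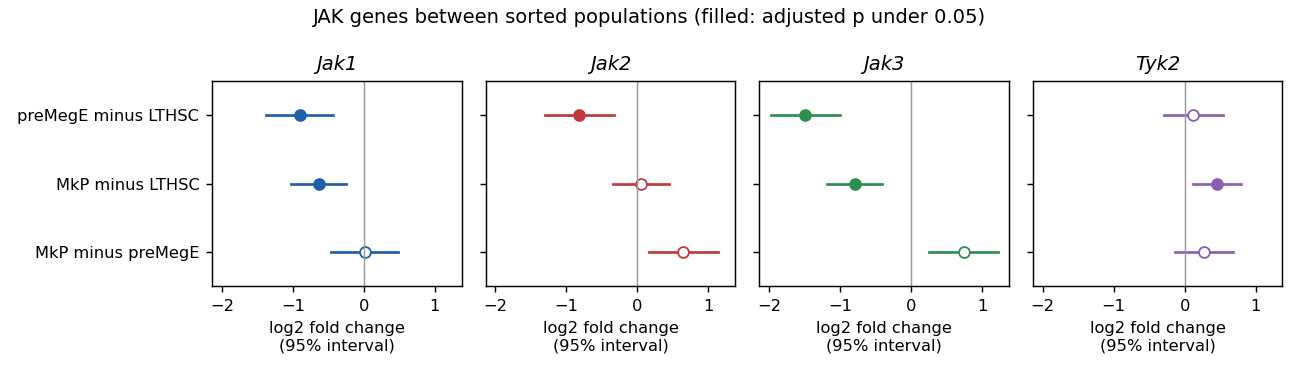
Log2 fold change of each JAK gene between populations with its 95% interval from edgeR, filled where the adjusted p is under 0.05. Jak1 and Jak3 lie below 0 in both comparisons with LTHSC, Jak2 in pre-MegE only, and Tyk2 lies above 0 in MkP (0.46).

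Markers of B cells, a lymphoid type, were highest in pre-MegE, the population with the lowest Jak3. The summed level of 7 B cell markers was 43.7 to 173 CPM in LTHSC, 176 to 1792 in pre-MegE and 51.7 to 146 in MkP. That of 8 T and NK cell markers was 46.7 to 1458, 380 to 2630 and 296 to 6447 CPM, nearly all from Nkg7, with Cd3d, Cd3e, Cd3g and Cd8a at a median of 0 in LTHSC and MkP. The part of these cells in the JAK levels was not tested.

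Within single lines fewer libraries enter each comparison. Of 7 comparisons between populations within a line, Jak1 passed in 2, pre-MegE against LTHSC in KI (-1.20, SE 0.32, edgeR adjusted p = 0.0098, where 29.3% of all genes passed) and MkP against LTHSC in KI (-1.12, SE 0.32, adjusted p = 0.0129, where 30.2% passed). Jak3 also passed in 2, pre-MegE against LTHSC in KI (-1.85, SE 0.34, adjusted p = 0.000772) and in VF (-1.14, SE 0.33, adjusted p = 0.0298, where 10.6% passed), and the VF call was lost in 5 of 6 fits that left out 1 library. Jak2 and Tyk2 passed in 0 of 7, the other 4 comparisons having 6.88% (MkP against LTHSC in E12), 5.46% (the same in VF), 2.89% (MkP against pre-MegE in KI) and 1.02% (the same in VF) of all genes called. Some of these calls turn on the setting. Without the 4 low-factor libraries, Jak1 also passed in VF for pre-MegE (-0.66, edgeR adjusted p = 0.014) and for MkP (-0.72, adjusted p = 0.0148) against LTHSC, and Jak3 for MkP against LTHSC in E12 (-1.23, adjusted p = 0.00437; -1.17 and adjusted p = 0.0218 without LTHSC E12 4 alone). Jak2 then passed for pre-MegE against LTHSC in KI (-0.79, adjusted p = 0.00999) and VF (-0.90, adjusted p = 0.0016) and for MkP against pre-MegE in KI (1.14, adjusted p = 0.0278). DESeq2 called 5 more, Jak2 for pre-MegE against LTHSC in KI and VF, Jak3 for MkP against LTHSC in KI and E12, and Jak3 for MkP against pre-MegE in KI. Jak3 for MkP against LTHSC in KI also passed with library size alone (-1.59, adjusted p = 0.0121) and without LTHSC KI 1 (-1.03, adjusted p = 0.0432). In E12, MkP and LTHSC differed by -0.12 in Jak1 (SE 0.32), a line whose LTHSC group holds the low library, and without LTHSC E12 4 the value was -0.47.

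The makeup of the family was described by the share of each gene in the summed per-length JAK level of its library, which needs no scaling between libraries. In stem cells Jak1 held 39.9% to 58.5%, Jak3 21.7% to 44.2%, Jak2 6.92% to 15.7% and Tyk2 6.67% to 12.7%. In pre-MegE Jak1 held 46.7% to 56.8%, Jak3 14.5% to 24.5%, Jak2 9.83% to 16.2% and Tyk2 12.6% to 19.6%. In MkP Jak1 held 39.6% to 52.7%, Jak3 21.0% to 29.0%, Jak2 10.4% to 19.6% and Tyk2 12.8% to 20.0%. Tyk2 therefore held a larger share in both progenitor populations than in stem cells, and its pre-MegE and MkP libraries all lay above the KI and VF stem cell libraries.

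These shares were compared by exact 2-sided permutation of the population labels within each line, with adjustment over 12 tests. From LTHSC to pre-MegE the share of Tyk2 rose by 7.92 points, from 7.46% ± 0.50 to 15.4% ± 2.78 (SD, n = 6 each, exact p = 0.005, adjusted 0.015), and that of Jak3 fell by 8.84 points, from 27.9% ± 4.63 to 19.1% ± 3.49 (exact p = 0.01, adjusted 0.02). From LTHSC to MkP Tyk2 rose by 6.90 points, from 8.14% ± 1.79 to 15.0% ± 2.16 (n = 9 each, exact p = 0.00025, adjusted 0.0015), and Jak2 rose by 4.34 points, from 10.7% ± 3.43 to 15.0% ± 3.06 (exact p = 0.00025, adjusted 0.0015). Between pre-MegE and MkP the share of Jak1 fell by 9.50 points, from 52.7% ± 3.61 to 43.2% ± 2.69 (exact p = 0.005, adjusted 0.015), and that of Jak3 rose by 6.74 points (exact p = 0.01, adjusted 0.02). The values 0.005 and 0.00025 are the smallest that these designs allow. The other 6 shares did not pass, among them Jak3 in MkP against LTHSC (-6.03 points, exact p = 0.036, adjusted 0.0617). The shares of a library sum to 100, so the 4 tests of a comparison are not independent. The rise of the Tyk2 share in both comparisons and of the Jak2 share in MkP passed with each library left out. So did the fall of the Jak1 share between pre-MegE and MkP. The levels themselves did not pass for Jak2 in MkP against LTHSC (0.04) or Tyk2 in pre-MegE against LTHSC (0.13). Nor did that of Jak1 in MkP against pre-MegE (0.01). The fall of the Jak3 share in pre-MegE did not pass without pre-MegE KI 3 (-8.21 points, adjusted exact permutation p = 0.06). Nor did it pass without pre-MegE VF 3 (-7.90, adjusted 0.05). The rise of the Jak3 share in MkP against pre-MegE did not pass without pre-MegE KI 3 (6.11, adjusted 0.06). It also did not pass without the low-factor libraries (4.94, adjusted 0.1).

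**Figure D3:**
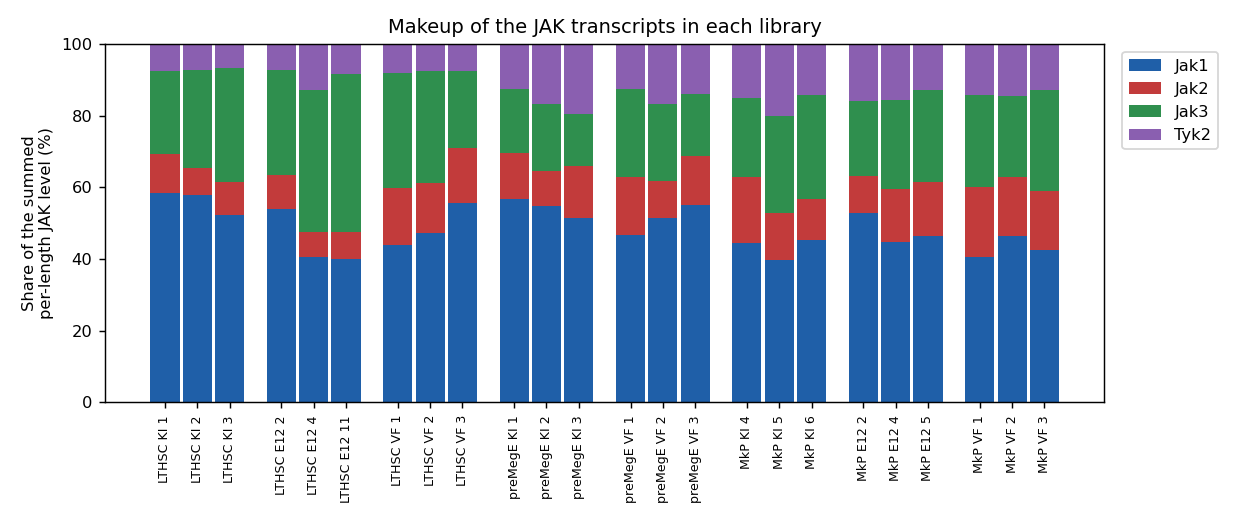
Share of each JAK gene in the summed per-length JAK level of each of 24 libraries, in percent, with 1 bar per library grouped by population and line. The top segment, Tyk2, spans 6.67% to 12.7% in LTHSC and 12.6% to 20.0% in the progenitor libraries.

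The second comparison asks whether the lines differ in the kinase genes, Jak2 being the gene the labels name. No member passed in any of the 7 genotype comparisons, that is in 0 of 28 tests with edgeR, where 0.0919% of genes passed for VF against KI in LTHSC, 0.0424% for E12 against KI in LTHSC, 0.0353% for VF against E12 in LTHSC, 0.0151% for VF against KI in pre-MegE and 0% in the 3 MkP comparisons. In those MkP comparisons 3611, 3899 and 167 genes had an unadjusted p under 0.05 (VF against KI, E12 against KI, VF against E12), and DESeq2 called 2570, 2844 and 8. The groups of 3 did not overlap in 7 of the 28 tests. Jak2 accounted for 4 of these, VF against KI in LTHSC and pre-MegE and VF against E12 in LTHSC and MkP. The share of all genes without overlap was 30.9%, 12.3%, 21.4% and 14.6% in those comparisons.

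Jak2 was higher in VF by 0.74 against KI in LTHSC (SE 0.36, edgeR adjusted p = 0.662), by 1.17 against E12 in LTHSC (SE 0.37, adjusted p = 0.441) and by 0.68 against KI in pre-MegE (SE 0.31, adjusted p = 0.642). The exact 2-sided permutation p was 0.1 for each, the smallest that 3 against 3 libraries allow. In MkP it was higher in VF by 0.51 against KI (SE 0.26, edgeR adjusted p = 0.232, exact permutation p = 0.2) and by 0.44 against E12 (SE 0.26, adjusted p = 1.0, exact permutation p = 0.1). Jak2 was thus higher in VF in 5 of 5 such comparisons, which share libraries. Without LTHSC E12 4 the VF and E12 difference in LTHSC was 0.82. E12 and KI overlapped, with -0.43 in LTHSC (95% interval -1.23 to 0.37; -0.085 without LTHSC E12 4) and 0.07 in MkP (-0.51 to 0.65).

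Several marker lists also separated the stem cell groups without overlap. Megakaryocyte markers stood at 681 to 1002 CPM in VF, 425 to 605 in E12 and 319 to 356 in KI. Erythroid markers stood at 74.8 to 111, 356 to 856 and 28.3 to 48.7 CPM. T and NK cell markers stood at 62.8 to 81.5, 136 to 1458 and 46.7 to 58.2 CPM. B cell markers (43.7 to 49.7 CPM) and neutrophil and monocyte markers (705 to 811) were lower in VF than in every KI and E12 library. The part of these cells in the Jak2 difference was not tested. In pre-MegE, neutrophil and monocyte markers stood at 8799 to 18787 CPM in VF and 2509 to 3873 in KI, and B cell markers at 176 to 215 and 376 to 1792. Their part in the line differences of Jak2 and Jak3 there was not tested.

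The Jak2 difference of VF and KI in LTHSC passed when only these 2 groups were fitted (0.75, SE 0.18, edgeR adjusted p = 0.0405), a fit that leaves the E12 libraries out of the spread. Without the 4 libraries of low TMM factor the value was 0.74 (SE 0.18, adjusted p = 0.0658). In MkP the value depended on the KI libraries. It was 0.78 without MkP KI 4, where it passed (adjusted p = 0.00797) in a fit that called 6732 of 13762 genes and kept only low-factor KI libraries. It was 0.09 without the low-factor libraries, which leaves MkP KI 4 as the only KI library, assumed to vary like the other groups (adjusted p = 0.921).

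Among the other members, Jak3 was higher in VF than in KI in pre-MegE by 0.79 without overlap (SE 0.36, edgeR adjusted p = 0.642, exact permutation p = 0.1). Within MkP, Jak1 was higher than in KI without overlap in both VF (0.24, SE 0.24, edgeR adjusted p = 0.534, exact permutation p = 0.1, where 20.3% of all genes did not overlap) and E12 (0.36, SE 0.24, edgeR adjusted p = 0.323, exact permutation p = 0.1, where 22.6% did not). These 2 comparisons share the KI libraries. Tyk2 differed between lines by -0.07 to 0.34, and its groups overlapped in 7 of 7 comparisons. Library size alone turned its sign for E12 against KI in LTHSC (-0.10) and for VF against KI in MkP (0.58), where the median of all genes was then 0.54 (0.55 for E12 against KI).

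As a share of the family, Jak2 stood at 14.0%, 15.2% and 15.7% in the VF stem cell libraries. It stood at 7.57%, 9.19% and 10.7% in KI and at 6.92%, 7.58% and 9.43% in E12, so the VF libraries did not overlap with either group. The difference was 5.82 points against KI and 7.01 against E12 (exact permutation p = 0.1 each, adjusted 0.622 over 28 tests). In pre-MegE the Jak2 shares of VF (10.4% to 16.2%) and KI (9.83% to 14.5%) overlapped, with a difference of 1.07 points (exact permutation p = 0.7). There the other members differed by 0.43 (Jak1), 0.79 (Jak3) and 0.34 (Tyk2) on the log2 scale.

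**Figure D4:**
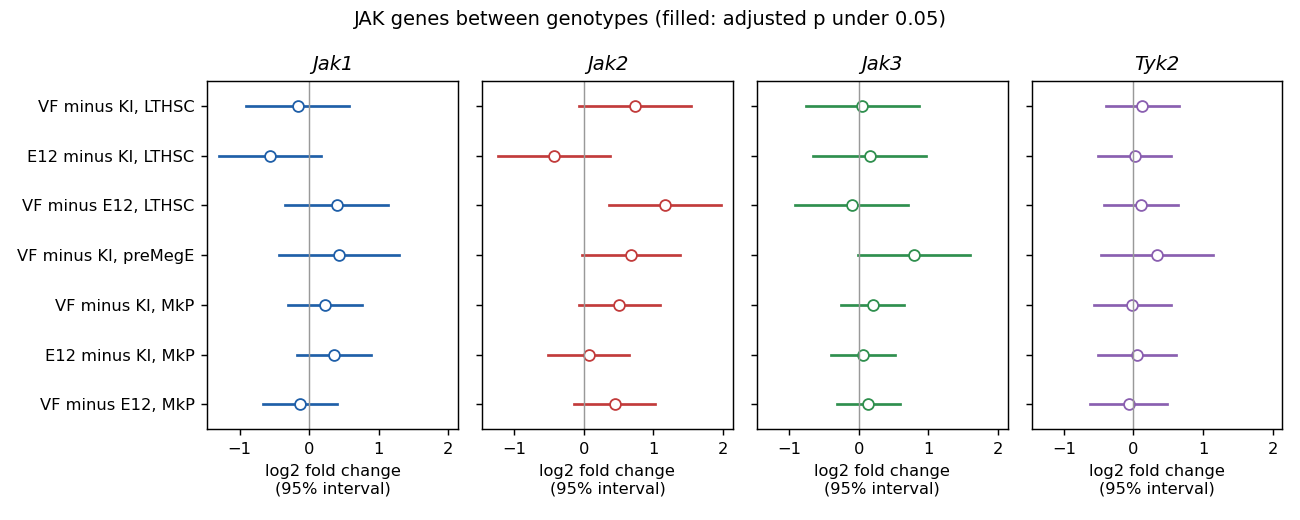
Log2 fold change of each JAK gene between lines within a population, with its 95% interval from edgeR; open points mark adjusted p of 0.05 or more. All 28 points are open, and the 5 Jak2 values that set VF against another line lie between 0.44 and 1.17.

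Whether a line difference changed with the population was tested as a difference of differences. None of 16 tests passed with edgeR, where 0.0334% of all genes passed for E12 against KI in MkP relative to LTHSC, 0.0134% for VF against KI there, and 0% in the other 2. For Jak2 the difference of VF and KI was -0.07 in pre-MegE relative to LTHSC (95% interval -1.04 to 0.90) and -0.19 in MkP relative to LTHSC (-1.16 to 0.78). The value farthest from 0 was that of Jak1 for E12 and KI in MkP relative to LTHSC (0.99, SE 0.45, adjusted p = 0.181), and it was 0.65 without LTHSC E12 4.

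The partners of the kinases were described with 67 listed genes of the pathway, of which 64 passed the filter on low counts. In pre-MegE against LTHSC 8 rose and 26 fell, or 53.1% of those tested, beside 40.7% of all genes, with a median log2 change of -0.51 beside -0.02 for all genes. In MkP against LTHSC 5 rose and 25 fell, or 46.9% beside 34.7%, with a median of -0.50 beside 0.01. In MkP against pre-MegE 6 rose and 7 fell, or 20.3% beside 7.54%. With library size alone the counts were 4 and 29 in pre-MegE and 3 and 27 in MkP.

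Among the STAT factors, the substrates of the kinases, 4 of 7 fell in both progenitor populations and none rose. That is 57.1% in each, beside 40.7% of all genes in pre-MegE and 34.7% in MkP. Stat4 fell by 2.16 (SE 0.30) in pre-MegE and by 1.21 (SE 0.24) in MkP, Stat3 by 1.18 (SE 0.26) and by 0.82 (SE 0.21), and Stat2 by 1.13 (SE 0.30) and by 0.64 (SE 0.24). Stat5a, Stat5b and Stat6 did not pass in either. Stat5a carries erythropoietin signals. In KI it averaged 136 ± 16.5 CPM in stem cells, 112 ± 36.1 in pre-MegE and 105 ± 38.2 in MkP (SD, n = 3). The means of the other lines were higher in the progenitors than in stem cells. VF averaged 121 ± 12.9 CPM in stem cells, 145 ± 38.3 in pre-MegE and 146 ± 7.21 in MkP. E12 averaged 124 ± 59.0 CPM in stem cells, a mean that includes LTHSC E12 4, and 152 ± 13.9 in MkP. No STAT factor was called higher against LTHSC within VF or E12.

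Of 9 tested receptors that signal mainly through Jak2, 2 rose and 3 fell in pre-MegE and 1 rose and 2 fell in MkP. These are 55.6% and 33.3% of the class, beside 40.7% and 34.7% of all genes, so the MkP count lies near that share. Epor, the erythropoietin receptor, rose by 2.50 (SE 0.33) in pre-MegE and by 1.31 (SE 0.26) in MkP. Csf3r, the receptor of granulocyte colony-stimulating factor, fell by 0.94 (SE 0.32) and by 2.65 (SE 0.27).

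The common gamma chain gene Il2rg, the receptor subunit that binds Jak3, fell by 1.49 (SE 0.21) in pre-MegE and by 3.04 (SE 0.18) in MkP. It averaged 1065 ± 58.0 CPM in KI stem cells, 324 ± 83.5 in KI pre-MegE and 138 ± 39.1 in KI MkP. Like Jak3 it was lower in both progenitor populations than in stem cells, but it fell from pre-MegE to MkP by 1.40 (SE 0.21, edgeR adjusted p = 0.000224), where Jak3 was 0.74 higher without passing. In pre-MegE 2 of 7 genes of the gamma chain class rose and 5 fell, and in MkP 3 fell and none rose. The called part was 100% and 42.9%, beside 40.7% and 34.7% of all genes. The risers were Il2rb and Il7r, and these and Il9r, one of the fallen, were near 0 in most groups, so no fold is given. Il7r, the interleukin-7 receptor of early lymphoid cells, stood at 22.3 ± 16.0 CPM in KI pre-MegE and 4.51 ± 4.04 in VF pre-MegE and at a mean under 1 CPM in every LTHSC and MkP group. B cell markers were also highest in pre-MegE, as given above, and their part in this was not tested.

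Il6st, the gp130 chain that works with Jak1, fell by 1.59 (SE 0.35) in pre-MegE and by 1.40 (SE 0.29) in MkP. Lifr, its partner in the leukaemia inhibitory factor receptor, rose by 2.39 (SE 0.75) and by 2.79 (SE 0.61) from a low level, 0.171 ± 0.255 CPM in KI stem cells. Of 6 interferon and interleukin-10 class receptors, 1 rose and 1 fell in pre-MegE and 5 fell in MkP. The called part was 33.3% in pre-MegE, below the 40.7% of all genes, and 83.3% in MkP, beside 34.7%. Ifngr2, a chain of the interferon gamma receptor, fell by 1.83 (SE 0.19) in MkP and Ifnar1, a chain of the type I interferon receptor that binds Tyk2, by 0.85 (SE 0.21) in pre-MegE and by 1.23 (SE 0.17) in MkP.

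Of 19 inhibitors 1 rose and 9 fell in pre-MegE and 8 fell in MkP. These are 52.6% and 42.1% of the class, beside 40.7% and 34.7% of all genes. Among the feedback genes, Cish fell by 2.78 (SE 0.38) in pre-MegE and by 2.25 (SE 0.30) in MkP. Socs2 fell by 2.75 (SE 0.29) and by 1.59 (SE 0.22), and Socs3 fell by 2.01 (SE 0.33) and by 2.34 (SE 0.28). Sh2b3, an adaptor that restrains Jak2, fell by 0.90 (SE 0.23) and by 1.28 (SE 0.19). Of 6 adaptors 1 rose in pre-MegE and 3 in MkP, among them Ptpn11, a phosphatase that passes receptor signals on, by 0.96 (SE 0.23) and by 1.47 (SE 0.19). The called part of the adaptors was 16.7% in pre-MegE, below the 40.7% of all genes, and 50% in MkP, beside 34.7%. Between lines 1 pathway gene passed in 1 of 7 comparisons, Socs2, which was higher in VF than in E12 stem cells by 2.92 (SE 0.39, edgeR adjusted p = 0.0431, where 0.0353% of all genes passed). It averaged 208 ± 19.3 CPM in VF, 27.5 ± 14.6 in E12 and 107 ± 18.5 in KI. No pathway gene was called in that comparison with library size alone, with only the 2 groups fitted, or without any one of LTHSC E12 11, LTHSC VF 1, LTHSC VF 2 and LTHSC VF 3. Without MkP KI 4, 21 pathway genes were called higher and 8 lower of 60 for VF against KI in MkP. For E12 against KI they were 21 and 10. That fit called 6732 and 6856 of 13762 genes in these comparisons, so the pathway counts lie near the share of all genes.

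**Figure D5:**
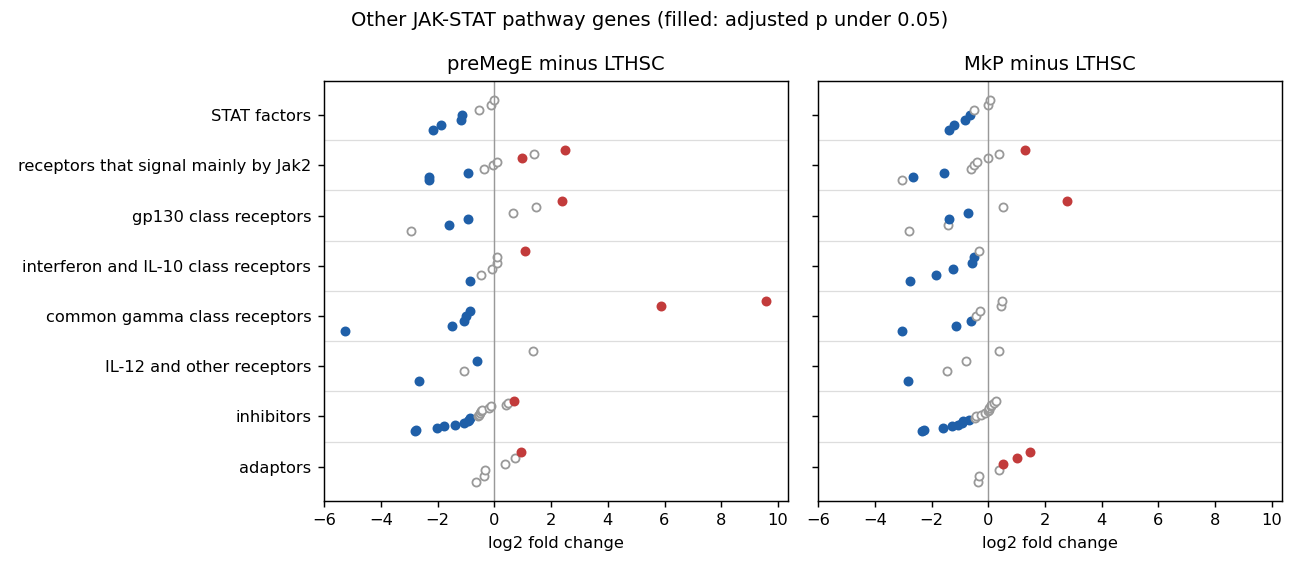
Log2 fold changes of the other pathway genes in pre-MegE and MkP against LTHSC, with 1 point per gene by group, red (rose) or blue (fell) where the adjusted p is under 0.05 and open otherwise. Fallen genes outnumber risen ones, 26 to 8 in pre-MegE and 25 to 5 in MkP; the rightmost point in pre-MegE is Il7r.

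Across the 8 group means of log2 CPM, Jak1 and Jak3 were the members most alike (Pearson r 0.80), followed by Jak1 and Jak2 (0.56), Jak2 and Jak3 (0.52) and Jak2 and Tyk2 (0.47). Tyk2 had r of -0.24 with Jak1 and -0.08 with Jak3. The points share libraries and scaling, and 8 group means are few. Among 9323 genes with a mean of at least 10 CPM, genes of highest likeness to Jak1 were Eya1 and Fam117b (r 0.98 each). The pattern of Jak2 was most like Dag1 (0.96), Parp6 (0.96) and Fam126b (0.95). That of Jak3 was most like Nbeal2 (0.99), Pea15a (0.98) and Sestd1 (0.97). That of Tyk2 was most like Naa15 (0.98), Ptprs (0.97) and Gabpa (0.97). Over the 24 libraries r was lower for these named genes, from 0.52 (Naa15) to 0.88 (Nbeal2). Across the group means 0.44% (Jak2) to 2.78% (Jak1) of the genes had r over 0.9 with a member.

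Jak3 overlaps another gene. Insl3 (chr8:71689252-71690577) lies within the span of Jak3 (chr8:71676383-71690577) and held 90 to 1195 counts per library, and how the authors assigned reads shared by overlapping genes is not given in the sources used here. Because the spans overlap, a part of the Jak3 or Insl3 counts may belong to the other, which was not tested. Insl3 fell by 1.28 in pre-MegE against LTHSC (SE 0.37, edgeR adjusted p = 0.00913), where 19.4% of all genes fell. Jak1 (chr4:101151974-101265282) and Raver2 overlap by 397 bases at their ends, and Raver2 held 0 to 760 counts. Jak2 (chr19:29251803-29313095) and Tyk2 (chr9:21104068-21131393) overlap no other gene of the RefSeq table used.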

How the data were processed

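The authors deposited raw read counts per Entrez gene and a gene length in bases. STAR 2.7.0c, featureCounts, Subread 1.6.4 and mm10 are named per the submitters' processing notes; the annotation, strand setting and treatment of multiply mapped reads are not given in the sources used here. Of the 24 count columns 6 are named MEP and were taken as the pre-MegE libraries by line and number. Rows without a symbol (16, at most 0.0132% of counts) were left out. IDs of 24374 genes matched RefSeq (GRCm38.p6). The smallest chi-square per degree of freedom over 276 pairs of libraries was 19.8, so none was a copy. Smart-seq2 reads carry no molecular identifiers, so precision was taken from the spread between libraries.

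The main test was the quasi-likelihood test of edgeR 4.0.16 (R 4.3.3), robust and 2-sided, after filterByExpr and TMM. P-values were adjusted by Benjamini-Hochberg over all genes tested, with a threshold of 0.05. Line comparisons were fitted within a population (14152 genes in LTHSC, 13231 in pre-MegE, 13435 in MkP), the others over all 24 libraries (14965 genes). Permutation tests used log2 CPM with prior count 2. Alternatives were RLE scaling, library size alone, no filter, DESeq2 1.42.0, only the groups compared, a replicate block, leaving out the 4 low-factor libraries and leaving out each library. Tested on simulated data of VF against KI, genes changed 4-fold were recovered at 65.7% in LTHSC (14152 genes), 32.8% in pre-MegE (13231) and 49.3% in MkP (13435), and genes changed 2-fold in 8.96%, 1.49% and 1.49%.

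Members and gene lists were chosen with earlier results of these data known. Named genes are the 4 members; pathway genes past the threshold, at most 6 in a group by size of change and 3 by level, of which the text gives some; and the 3 genes of most like pattern per member. Some genes that this rule names are not reported here. Stat5a and Insl3 were named outside this rule after their values were seen.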

Additional observations from a re-analysis of the deposited data

Results flagged for a closer look

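In 3 cases a library lay far from the other 8 of its population, over all lines, by the gap to its nearest neighbour relative to the range. The Jak1 level of LTHSC E12 4 was 21.1 CPM per kb, and the next was 53.2. The Tyk2 share of the same library was 12.7% of the summed JAK level, and the next was 8.35%. The Tyk2 share of MkP KI 5 was 20.0%, and the next was 15.8%. Both are libraries of low TMM factor, and LTHSC E12 4 also held the most neutrophil and monocyte marker RNA of its population, 26868 CPM; the part of either in these values was not tested. Chance flags about 1 in 20 groups, and 24 were looked at.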

How the results depend on the processing

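The falls of Jak1, Jak2 and Jak3 in pre-MegE against LTHSC kept direction and call in every alternative and leave-one-out fit. Library size alone left Tyk2 in MkP against LTHSC at 0.14 and turned signs, none of a called value: Tyk2 for E12 against KI in LTHSC (-0.10), VF against KI in MkP (0.58), pre-MegE against LTHSC (-0.23; KI -0.38, VF -0.073) and MkP against LTHSC in KI (-0.25), Jak3 for VF against E12 in LTHSC (0.026), Jak2 for MkP against LTHSC (-0.25), and Jak1 for MkP against pre-MegE (-0.042; KI -0.12, VF 0.034). Among differences of differences relative to LTHSC it gave 0.12 and 0.18 for Jak2 (VF against KI, pre-MegE and MkP), 0.41 for Tyk2 (VF against KI, MkP) and 0.64 for Jak3 (E12 against KI, MkP). Without the 4 low-factor libraries Tyk2 gave -0.038 (VF against E12, LTHSC), 0.060 (VF against KI, MkP) and, relative to LTHSC, -0.018 (VF against KI, pre-MegE) and -0.080 (E12 against KI, MkP). Jak2 gave -0.35 (E12 against KI, MkP), -0.30 (the same relative to LTHSC), 0.36 (MkP against LTHSC in KI) and 0.86 (MkP against pre-MegE, now called). Shares gave -0.52 for Jak1 (pre-MegE against LTHSC), -7.01 for Jak3 (MkP against LTHSC, now called, adjusted p = 0.0475 by exact permutation) and 4.94 for Jak3 (MkP against pre-MegE, no longer called). No filter gave 0.0074 for Tyk2 (VF against KI, MkP), and RLE and DESeq2 -0.0086 and -0.0063 for Tyk2 (E12 against KI, MkP relative to LTHSC). For MkP against pre-MegE RLE gave 0.75 for Jak3, and DESeq2 0.64 for Jak2 and 0.75 for Jak3, all called. Only the 2 groups gave 0.75 for Jak2 (VF against KI, LTHSC, called). Counts without division by length gave shares of -0.68 for Jak1 (pre-MegE against LTHSC) and 0.047 for Tyk2 (MkP against pre-MegE). The cause was not tested in any of these.

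Same-numbered libraries did not deviate together in every pair (r from -0.00685 to 0.0109 for VF and KI in LTHSC, where 2 of 3 correlated best with their own number, and 0.0538 to 0.256 in pre-MegE, where 3 of 3 did; for MkP and LTHSC in VF it was 0.0641 to 0.110, and 3 of 3 did), so the numbers are not taken to pair them. With the replicate block Jak2 for VF against KI in LTHSC was 0.76 (called, edgeR adjusted p = 0.0367, with 704 genes called in place of 13), and MkP against LTHSC gave -0.36 for Jak1, -0.58 for Jak3 and 0.53 for Tyk2, none called (1870 genes in place of 5198). Between populations the block fit kept only libraries whose line and number occurred in both. The KI numbers of MkP match none in the other populations, so KI was left out of both MkP comparisons. MkP against LTHSC thus rested on E12 and VF libraries, and MkP against pre-MegE on VF alone. These are not the same contrasts as the main ones. The block also gave -0.0056 for Jak2 and -0.22 for Tyk2 (E12 against KI, MkP) and -0.050 for Jak1 (MkP against pre-MegE). It changed no other call of a member.

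Leaving out 1 library gave these ranges. For Jak1, the share in pre-MegE against LTHSC was -1.15 to 1.78 points, and log2 values were -0.47 to 0.18 (MkP against LTHSC in E12), -0.073 to 0.16 (MkP against pre-MegE; KI -0.079 to 0.37, VF -0.19 to 0.13) and -0.20 to 0.041 (VF against E12, MkP). For Jak2 they were -0.11 to 0.34 (E12 against KI, MkP), -0.077 to 0.13 (MkP against LTHSC; KI -0.40 to 0.12), 0.33 to 0.78 (VF against KI, MkP) and, relative to LTHSC, -0.39 to 0.12 (VF against KI, MkP) and -0.22 to 0.11 (pre-MegE). For Jak3, shares were -7.46 to -4.95 (MkP against LTHSC, called without LTHSC KI 1, LTHSC E12 2, LTHSC VF 3 or MkP KI 6), 5.80 to 7.74 (MkP against pre-MegE, lost without pre-MegE KI 3) and -10.5 to -7.71 (pre-MegE against LTHSC, lost without pre-MegE KI 3 or VF 3). Its log2 values were -0.27 to 0.46 (E12 against KI, LTHSC), -0.010 to 0.12 (MkP), 0.63 to 0.93 (MkP against pre-MegE), -0.38 to 0.33 (VF against E12, LTHSC), -0.13 to 0.36 (VF against KI, LTHSC) and, relative to LTHSC in MkP, -0.32 to 0.44 (E12 against KI), -0.24 to 0.52 (VF against E12) and -0.10 to 0.37 (VF against KI). For Tyk2, the share in MkP against pre-MegE was -1.15 to 0.57 points. Its log2 values were -0.15 to 0.17 (E12 against KI, LTHSC), -0.081 to 0.25 (MkP), 0.40 to 0.52 (MkP against LTHSC), -0.0091 to 0.23 (MkP against pre-MegE in VF), -0.032 to 0.24 (pre-MegE against LTHSC; KI -0.28 to 0.26), -0.038 to 0.28 (VF against E12, LTHSC), -0.21 to 0.072 (MkP), -0.15 to 0.18 (VF against KI, MkP) and, relative to LTHSC, -0.054 to 0.32 (E12 against KI, MkP), -0.24 to 0.077 (VF against KI, MkP) and -0.047 to 0.50 (VF against KI, pre-MegE).

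Over all genes, the count called for VF against KI in LTHSC was 13, and 933 with only the 2 groups, 293 without the low-factor libraries, 287 with DESeq2 and 5 with library size alone. For E12 against KI in LTHSC it was 6, and 465 with DESeq2, 21 with no filter, 18 without the low-factor libraries and 2 with only the 2 groups. For VF against E12 in LTHSC it was 5, and 182 with DESeq2, 13 without the low-factor libraries, 9 with no filter, 3 with library size alone and 1 with only the 2 groups. For VF against KI in pre-MegE it was 2, and 69 with DESeq2, 32 without the low-factor libraries, 10 with the block, 9 with no filter and 0 with RLE. In MkP the 0 called became 60 (VF against KI), 99 (E12 against KI) and 11 (VF against E12) without the low-factor libraries, 1041 with no filter and 9 with the block (E12 against KI) and 12 with only the 2 groups (VF against E12). Leaving out MkP KI 4 gave 6732 (VF against KI) and 6856 (E12 against KI) there, and leaving out LTHSC E12 2 gave 396 in LTHSC for E12 against KI and 305 for VF against E12. For MkP against pre-MegE it was 1128, and 2708 without the low-factor libraries, 1790 with DESeq2 and 685 with library size alone. With 3 libraries a group, few 2-fold changes between lines could be called, so a difference of that size was not reliably detectable.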

Other observations

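The promoters of the 4 genes, taken as the 250 bases before the start that the RefSeq promoter table uses (GRCm38.p6), differed in base composition. For Jak1 and Tyk2 that start lies inside the span of the gene, so their windows reach into it. That of Jak2 was 80.8% G and C, above 99% of promoters, while Jak1 had 61.2%, Tyk2 57.2% and Jak3 52.4%, the last above 49.7% of promoters. Among 6 motifs searched on both strands, GGGCGG (the GC box, in 32.7% of 32851 promoters) was found in all 4, with 2 matches each in Jak2 and Tyk2. CCAAT (in 33.8%) was found in Jak1 and Tyk2, and TGACGTCA (in 1.55%) in Jak1. AGATAA (in 9.99%), CCGGAAG (in 6.91%) and TTCNNNGAA (in 7.02%), the last being the core of STAT sites, had no match in these windows.

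The 3 nearest measured genes on each side were also read. In pre-MegE against LTHSC, Cd274, the checkpoint ligand gene near Jak2, fell by 2.22 (SE 0.41). Cdc37, the kinase chaperone gene near Tyk2, rose by 0.71 (SE 0.19). In MkP against LTHSC Cd274 fell by 1.32 (SE 0.32) and Cdc37 rose by 0.42 (SE 0.16). Of 6 neighbours each in pre-MegE against LTHSC, 1 of Jak1, 2 of Jak2, 1 of Jak3 and 2 of Tyk2 rose. There 2 of Jak1, 1 of Jak2, 2 of Jak3 and 0 of Tyk2 fell. Of all genes 40.7% passed there, 21.3% higher and 19.4% lower. In MkP against LTHSC 3 of Tyk2 rose, and 2 of Jak1, 1 of Jak2 and 2 of Jak3 fell. Of all genes 17% rose and 17.7% fell in MkP.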
